A study of Mus musculus with 9 samples.

Results

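Glutamate receptor subunits and their auxiliary subunits were described through 31 genes, taken by name from the 37725 genes of a single-cell RNA sequencing matrix of the mouse retina. The list held the 4 AMPA, 5 kainate and 7 NMDA receptor subunit genes, the delta receptor gene *Grid1*, 6 metabotropic receptor genes, the 2 Neto genes and 6 TARP genes, and all 31 names were found in the matrix. For each mouse, unique molecular identifiers (UMIs, counted RNA molecules) were summed within retinal neuron classes and Müller glia selected by marker UMIs. Levels are UMIs of a gene per 1000000 UMIs of the class in that mouse (CPM).

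Glutamate is the transmitter of photoreceptors, bipolar cells and ganglion cells. AMPA, kainate and NMDA receptors are ion channels built from subunits of their own family, whose mixture sets kinetics and calcium entry, while metabotropic receptors act through G proteins. TARPs are auxiliary subunits that carry AMPA receptors to the membrane and slow their closing, Neto proteins do the same for kainate receptors, and OFF bipolar cells receive photoreceptor glutamate through AMPA and kainate receptors while ON bipolar cells use a metabotropic receptor.

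The study deleted the microRNAs miR-204 and miR-211 in the retinal pigment epithelium (RPE) of adult mice and sequenced the RNA of fixed single cells from both retinas of each animal, combined per mouse. Every mouse carried RPE65-ERT2-Cre.miR-211fl.miR-204fl and was homozygous for the RPE65 M450 allele, so the groups were set by the injection. The 4 control mice (S01 to S04) received corn oil, and the 5 double knockout (dKO) mice (S05 to S09) received tamoxifen dissolved in corn oil at 75 mg/kg, both by intraperitoneal injection for 5 days from postnatal day 28, with collection 6 months later. The RPE65 promoter drives Cre in the RPE, so neurons and Müller glia were not targets of the deletion.

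*Mir204* and *Mir211* were not among the gene names, so the deletion could not be read from the matrix. The labels of S06 and S07 carried the same animal number, and these samples were also summed as 1 mouse in an alternative. The matrix held 31089 cells. Control mice S01 to S04 gave 4127, 3865, 3237 and 2711 cells with 52226056, 52232950, 43978587 and 22401856 UMIs, and dKO mice S05 to S09 gave 1620, 4140, 4704, 3200 and 3485 cells with 15079143, 66528160, 53382574, 44045870 and 42369620 UMIs. In all, 2808 barcodes occurred in more than 1 of the 8 sublibraries (5920 cells) and 0 occurred in more than 1 mouse.

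Mice S04, S05 and S07 stood apart from the other 6. Rod-gated cells made up 85.2%, 69.2% and 77.0% of their cells, against 31.8% to 44.996% in the other mice, and their median UMIs per cell were 4775, 4863 and 5412.5, against 8118 to 10340. They belonged to both groups, S04 to control and S05 and S07 to dKO. Counts of called genes are therefore given with and without them.

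The gates assigned 26189 cells (84.2%) to 11 classes and left 4900 cells out. They gave 15592 rod, 2059 cone, 816 rod bipolar, 1221 ON cone bipolar, 1207 OFF cone bipolar, 217 horizontal, 1615 GABAergic amacrine, 106 starburst amacrine, 908 glycinergic amacrine, 400 ganglion and 2048 Müller glia cells. A class name here stands for the cells that passed its gate, which is a range on a marker score and not a proven type. Within a factor of 1.5 of the threshold lay 1175 rod, 68 cone, 11 rod bipolar, 68 ON cone bipolar, 17 OFF cone bipolar, 8 horizontal, 142 GABAergic, 0 starburst, 49 glycinergic, 15 ganglion and 66 Müller glia cells.

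A mouse entered a class with at least 10 cells, which left all 9 mice in 7 classes. Horizontal cells had 7 mice (not S04 or S05), starburst cells 6 (not S04, S05 or S07), and glycinergic and ganglion cells 8 (not S04). Means are given ± SD over these mice. Median UMIs per cell ran from 4689.5 in rods to 50444 in ganglion cells, so the same CPM rested on unequal counts per cell.

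Levels of gate markers followed from the selection and are no check of identity. Pooled over cells, *Arr3* stood at 9290 CPM in cones, *Prkca* at 17837 in rod bipolar cells, *Onecut1* at 615 in horizontal cells, *Chat* at 845 in starburst cells and *Rlbp1* at 911 in Müller glia. Of genes outside the gates, *Rbpms* stood at 1128 CPM in ganglion cells and at most at 36.3 CPM in any other class. The inhibitory vesicular transporter gene *Slc32a1*, also outside the gates, stood at 78.2, 54.1 and 55.1 CPM in GABAergic, starburst and glycinergic cells, 20.8 CPM in horizontal cells and at most 1.36 CPM elsewhere. *Trpm1* was part of a score that selected rod bipolar cells, so its level there followed in part from the gate. It stood at 8852, 2479 and 728 CPM in rod bipolar, ON and OFF cone bipolar cells. It stood at most at 96.0 CPM elsewhere. *Tfap2b* was part of a score with a minimum for amacrine and a maximum for bipolar cells. Its levels in those classes thus followed in part from the gates. *Tfap2b* stood at 844 CPM in horizontal cells, but also at 422 to 510 CPM in the amacrine classes. In Müller glia *Glul* had a mean over mice of 6324 CPM, against 76.0 CPM in rods. Rods and cones were not checked with a gene outside the gates. Free RNA was not removed and no doublet caller was run, so a low level in a class may not be expression there. The median rod score per 10000 UMIs was 196.9 in rods, 30.65 in cones and 2.47 to 3.42 elsewhere, and rod bipolar cells had a median horizontal score of 16.64.

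The 31 genes gave 1739834 UMIs in gated cells, which was 0.586% of the UMIs of those cells. By mean CPM, 7 members were highest in starburst, 6 in glycinergic, 5 in GABAergic, 3 in rod bipolar, 3 in OFF cone bipolar, 3 in horizontal, 2 in ganglion, 1 in ON cone bipolar and 1 in Müller glia cells, and 0 in rods or cones. The highest class mean was 4.16 times the lowest for *Cacng7* and 4.85 times for *Grik5*, the smallest ratios among the members. The highest class of every member was thus an inner retinal neuron class or Müller glia, as the heat map of mean levels shows.

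**Figure D1:**
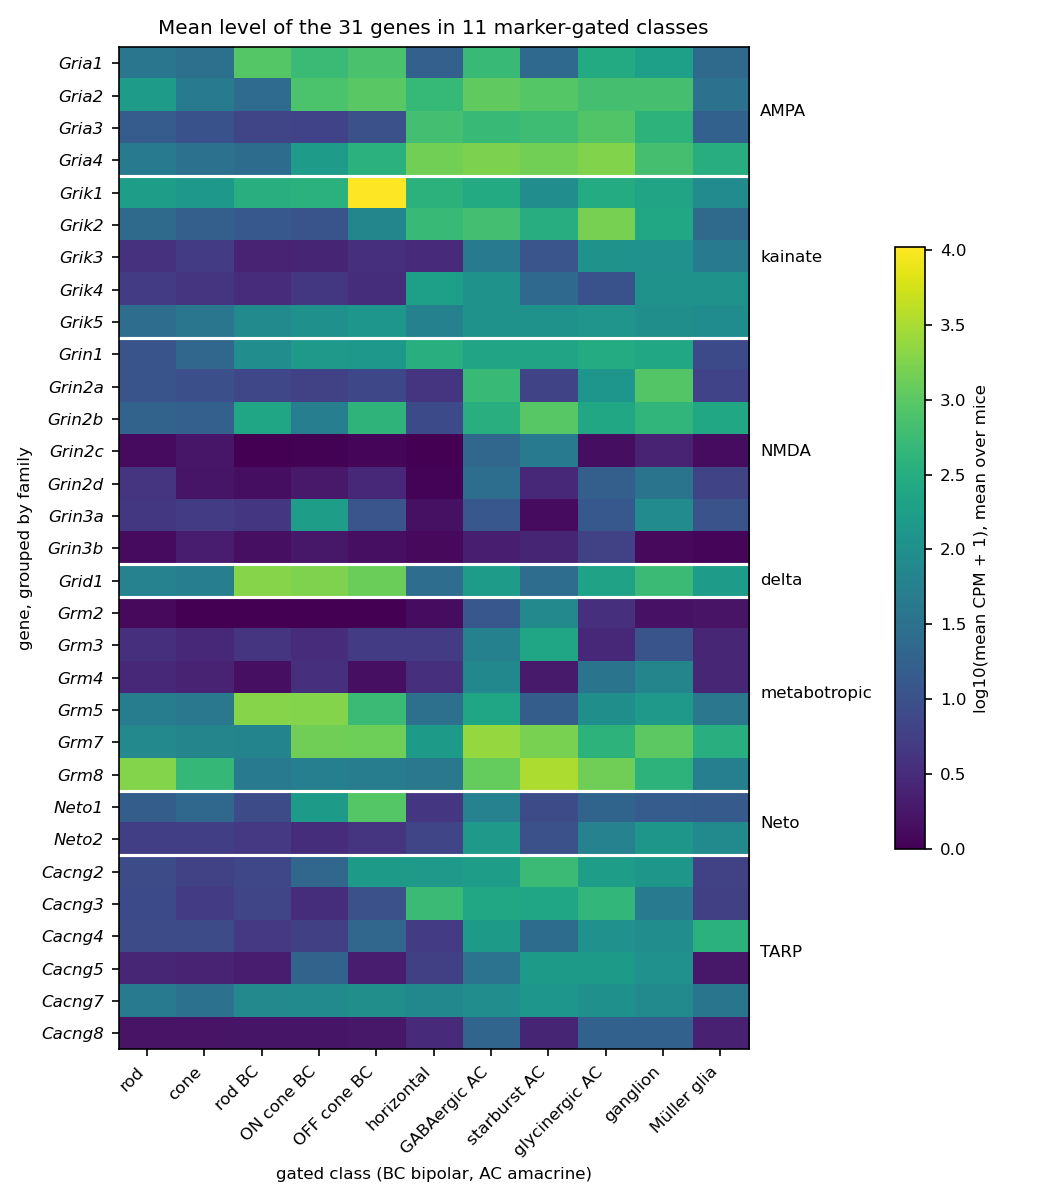
Mean CPM of the 31 genes (one line each, grouped by family) in the 11 gated classes (columns), on a log color scale over the mice with at least 10 cells. Grik1 in OFF cone bipolar cells (10391 CPM) is the highest value, and Cacng7 and Grik5 are the most even lines.

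The AMPA receptor genes *Gria1* to *Gria4* encode the pore subunits of the fast glutamate receptor. Their summed level was 3772 ± 195 CPM in GABAergic and 3616 ± 235 CPM in glycinergic amacrine cells and 113 ± 35.3 CPM in cones, the highest and lowest class means. Among them GluA2, the product of *Gria2*, keeps calcium out of the channel because its transcript is edited at the glutamine codon of the pore, where arginine is read instead. The genome encodes the unedited codon in all 4 genes, so the stretches around it are shown to locate the site in coding exon 11, with that codon in capitals (GRCm39, GENCODE M39, coding strand). They lie at chr11:57133908-57133934 (+) for *Gria1*, chr3:80614206-80614232 (-) for *Gria2*, chrX:40699130-40699156 (+) for *Gria3* and chr9:4464125-4464151 (-) for *Gria4*. UMI counts do not report editing, so edited and unedited transcripts were not told apart.
Gria1: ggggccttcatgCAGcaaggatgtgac
Gria2: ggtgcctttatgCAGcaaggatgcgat
Gria3: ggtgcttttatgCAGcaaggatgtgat
Gria4: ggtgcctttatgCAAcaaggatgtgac

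Rod bipolar cells, which collect rod signals, used *Gria1* (ENSMUSG00000020524, chr11:56902153-57221080) almost alone. Its level there was 837, 852, 859 and 911 CPM in S01 to S04 (control) and 954, 771, 985, 818 and 1038 CPM in S05 to S09 (dKO). The control values lay inside the dKO range, and S09 was the highest mouse. *Gria2* (ENSMUSG00000033981, chr3:80588757-80710538) in the same cells stood at 20.02, 37.03, 23.5 and 8.85 CPM in S01 to S04 (control) and 6.72, 38.5, 25.9, 37.9 and 24.7 CPM in S05 to S09 (dKO). S04 and S05 were lowest, and the groups overlapped. Of the AMPA UMIs of rod bipolar cells, *Gria1* took 94.04% ± 2.44 and *Gria2* 2.66% ± 1.37, or 95.8% ± 1.34 and 1.44% ± 0.586 with a stricter gate, and per exonic kb the levels were 108.74 ± 10.6 and 0.904 ± 0.431 CPM.

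Cone bipolar cells held both subunits. *Gria2* in ON cone bipolar cells stood at 763, 854, 692 and 682 CPM in S01 to S04 (control) and 771, 719.9, 777, 751 and 769 CPM in S05 to S09 (dKO). All dKO values fell within the control range there. *Gria2* took 51.5% ± 4.71 of AMPA UMIs in ON and 46.6% ± 4.41 in OFF cone bipolar cells, but it has 27443 annotated exonic bases against 8200 for *Gria1*. Per exonic kb *Gria1* was the higher, with 67.4 against 27.4 CPM in ON and 89.4 against 35.1 CPM in OFF cone bipolar cells. Levels per kb assume reads from exons, and whether intronic reads were counted was not given in the sources used.

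In rods *Gria2* stood at 156, 153, 147 and 197 CPM in S01 to S04 (control) and 168, 168, 172, 142 and 161 CPM in S05 to S09 (dKO). S04 was highest and S08 lowest, with overlap between groups. It made up 63.2% ± 4.96 of rod AMPA UMIs, and in cones its level was 42.8 ± 19.9 CPM. Per exonic kb *Gria2* still led in rods with 5.92 CPM against 4.45 for *Gria1*.

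Horizontal cells, which receive photoreceptor input laterally, had little *Gria1* (16.02 ± 12.9 CPM). *Gria3* (ENSMUSG00000001986, chrX:40489476-40767490), whose product GluA3 is an unedited pore subunit at this codon, stood there at 579.6, 654 and 630.1 CPM in S01 to S03 (control) and 575, 782, 643 and 675 CPM in S06 to S09 (dKO). S07 was highest, and the groups overlapped. *Gria4* (ENSMUSG00000025892, chr9:4417604-4796326), which encodes GluA4, took 55.98% ± 1.78 of the AMPA UMIs of horizontal cells at 1476 ± 96.1 CPM. *Gria3* was highest in glycinergic amacrine cells (837 ± 103 CPM) and lowest in ON cone bipolar cells (5.54 ± 2.71 CPM).

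*Gria4* was also the leading AMPA gene of glycinergic (1803 ± 129.8 CPM), GABAergic (1647 ± 168 CPM) and starburst cells (1434 ± 150.0 CPM), by UMIs and per kb. The glycinergic and GABAergic means differed by less than the larger of their SDs. In Müller glia, the radial glia that take up glutamate, it stood at 375, 299.9, 294 and 445 CPM in S01 to S04 (control) and 319.8, 292, 209, 347 and 319 CPM in S05 to S09 (dKO). S04 was the highest and S07 the lowest mouse, and the groups overlapped. Of Müller AMPA UMIs 81.7% ± 7.20 came from *Gria4*. Ganglion cells had no single leading gene, with 35.2% ± 1.90 from *Gria2* and 35.2% ± 3.30 from *Gria4*, and per exonic kb 32.8% from *Gria4*, 26.4% from *Gria3*, 21.5% from *Gria2* and 19.3% from *Gria1*.

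Kainate receptors are built from GluK1 to GluK3, which form channels by themselves, and GluK4 and GluK5, which join them and raise affinity. *Grik1* (ENSMUSG00000022935, chr16:87692788-88087153), the GluK1 gene, was highest in OFF cone bipolar cells, with 11229, 9774, 9039 and 13238 CPM in S01 to S04 (control) and 9559.5, 10339, 9448, 9961 and 10934 CPM in S05 to S09 (dKO). All dKO values lay within the control range, whose ends were S03 and S04. It gave 98.1% ± 0.488 of the kainate UMIs of these cells. The next class by mean level was horizontal cells with 379 ± 82.9 CPM, within the spread of ON cone bipolar cells (368 ± 262 CPM).

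*Grik1* varied widely between mice in ON cone bipolar cells. The values were 199, 664, 126 and 647 CPM in S01 to S04 (control) and 54.1, 731, 115, 364 and 417 CPM in S05 to S09 (dKO). S05 was lowest and S06 highest, both dKO, so the groups overlapped across the whole range. *Grik1* took 67.5% ± 17.8 of kainate UMIs there. With a stricter gate its share was 45.3% ± 12.9, and *Grik5* led with 48.7% ± 13.3. Lower levels were found in rod bipolar cells (325 ± 159.9 CPM), rods (175 ± 128 CPM), cones (136 ± 89.4 CPM) and Müller glia (84.2 ± 42.00 CPM). Without S04, S05 and S07 the rod mean was 117 and the cone mean 105 CPM.

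*Grik2* (ENSMUSG00000056073, chr10:48970929-49664880) encodes GluK2. In glycinergic amacrine cells, its highest class, it stood at 1598, 1389 and 1681 CPM in S01 to S03 (control) and 1988, 1505, 1604, 1356 and 1476 CPM in S05 to S09 (dKO). S05 was highest, and the control values fell within the dKO range. It took 76.2% ± 8.48 of kainate UMIs there, and 54.9% ± 7.40 in GABAergic cells at 666 ± 77.5 CPM. Per exonic kb the GABAergic share was 36.9%, close to 36.2% for *Grik1*. ON cone bipolar cells were the lowest class (10.2 ± 5.05 CPM).

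The other kainate genes were lower. *Grik3*, for GluK3, reached 115 ± 54.7 CPM in glycinergic and 107 ± 41.4 CPM in ganglion cells, which lay within their spread. *Grik4*, for GluK4, reached 185 ± 32.9 CPM in horizontal cells and 108.97 ± 25.8 CPM in Müller glia, where it held 31.4% ± 6.42 of kainate UMIs. *Grik5*, for GluK5, varied less, from 25.9 ± 4.74 CPM in rods to 126 ± 29.3 CPM in OFF cone bipolar cells.

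NMDA receptors need GluN1, from *Grin1*, joined by GluN2 subunits that bind glutamate or by GluN3 subunits that bind glycine. Their summed level was 1667 ± 130.4 CPM in ganglion cells and 45.1 ± 10.01 CPM in rods, the highest and lowest class means. *Grin1* was highest in horizontal cells (336 ± 28.3 CPM), where it held 96.9% ± 1.85 of NMDA UMIs. The level of *Grin1* was lowest in Müller glia (6.92 ± 3.08 CPM), while *Grin2b*, for GluN2B, stood there at 249.7 ± 48.8 CPM with 89.5% ± 3.83 of NMDA UMIs. These classes thus held the opposite ends of the *Grin1* share. *Grin1* exons overlap 1307 bases of *Grin1os* on the opposite strand, and whether counting used the strand was not given in the sources used.

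*Grin2a* (ENSMUSG00000059003, chr16:9385762-9813424), for GluN2A, was highest in ganglion cells, with 910.4, 775 and 872 CPM in S01 to S03 (control) and 1142, 688, 693, 792 and 1007 CPM in S05 to S09 (dKO). S05 was highest and S06 lowest, and the control values fell between them. GABAergic amacrine cells followed at 522 ± 56.2 CPM, a log2 difference of 0.73 ± 0.07 that was below the threshold of 1 for a call, and horizontal cells were lowest at 3.10 ± 2.37 CPM. Starburst cells, which are GABAergic as well, had 5.66 ± 3.56 CPM.

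*Grin2b* (ENSMUSG00000030209, chr6:135690231-136150548) was highest in starburst cells (936 ± 91.2 CPM), where it took 77.1% ± 3.09 of NMDA UMIs. In OFF cone bipolar cells it stood at 419.8, 418, 392 and 283 CPM in S01 to S04 (control) and 504, 366, 512, 431 and 334 CPM in S05 to S09 (dKO). S04 was lowest and S07 highest, with overlap. Rod bipolar cells had 232 ± 86.6 CPM and ON cone bipolar cells 50.5 ± 18.2 CPM.

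*Grin3a* (ENSMUSG00000039579, chr4:49661611-49845847), for GluN3A, had ON cone bipolar cells as its highest class. The values were 169.9, 151, 123 and 96.9 CPM in S01 to S04 (control) and 302, 106, 294, 115 and 160.1 CPM in S05 to S09 (dKO). S05 and S07 were high and S04 was low, and the groups overlapped. Without these 3 mice the mean was 137 CPM against 169 with them. It held 43.3% ± 9.72 of NMDA UMIs there, and per exonic kb 42.7% against 47.6% for *Grin1*.

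The remaining NMDA genes were sparse. *Grin2c*, for GluN2C, reached 43.7 ± 17.4 CPM in starburst cells and had 0 UMIs in rod bipolar and horizontal cells, where 3 UMIs would have been 0.231 and 0.361 CPM. *Grin2d*, for GluN2D, reached 34.6 ± 7.58 CPM in ganglion cells. *Grin3b*, for GluN3B, did not exceed 5.30 ± 0.823 CPM in glycinergic cells, and 1059 of its 3296 exonic bases overlap *Tmem259* on the opposite strand.

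*Grid1* (ENSMUSG00000041078, chr14:34541769-35305336) encodes the delta receptor GluD1, which organizes synapses and is not opened by glutamate. It was high in bipolar cells, with 1935 ± 130.2 CPM in rod bipolar, 1758 ± 102 CPM in ON and 1286 ± 104 CPM in OFF cone bipolar cells. Ganglion cells followed at 536 ± 76.6 CPM. The lowest were horizontal (25.8 ± 25.99 CPM) and starburst cells (26.4 ± 15.4 CPM).

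Metabotropic receptors fall into a class that raises calcium, to which mGluR5 from *Grm5* belongs, and classes that lower cyclic AMP, with the products of *Grm2*, *Grm3*, *Grm4*, *Grm7* and *Grm8*. *Grm5* (ENSMUSG00000049583, chr7:87233376-87784594) was highest in rod bipolar cells, at 1612, 2126, 1779.8 and 2186 CPM in S01 to S04 (control) and 1868, 1734, 2362, 1974 and 1841 CPM in S05 to S09 (dKO). S07 was highest and S01 lowest, and the groups overlapped. It held 94.5% ± 1.40 of the metabotropic UMIs counted in rod bipolar cells, where the list lacks the ON bipolar receptor gene *Grm6*. ON cone bipolar cells had 1835 ± 252 CPM, within the spread of rod bipolar cells.

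*Grm8* (ENSMUSG00000024211, chr6:27275118-28135177), for the presynaptic receptor mGluR8, was the leading metabotropic gene of photoreceptors. In rods it stood at 1808, 2079.9, 1910.1 and 1693 CPM in S01 to S04 (control) and 1725, 1882, 1582, 1904 and 1954 CPM in S05 to S09 (dKO). S02 was highest and S07 lowest, with overlap. It held 93.5% ± 1.76 of the metabotropic UMIs of rods and 81.9% ± 8.13 of those of cones, where the level was 464 ± 46.8 CPM. Starburst cells were higher still, at 3260.2, 3553 and 3561 CPM in S01 to S03 (control) and 3353, 3394 and 3188 CPM in S06, S08 and S09 (dKO). S09 was lowest and S03 highest, and the groups overlapped.

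*Grm7* (ENSMUSG00000056755, chr6:110622542-111544191), for the presynaptic low-affinity receptor mGluR7, was highest in GABAergic cells (2394 ± 652 CPM), followed by starburst (1635 ± 197 CPM), ON cone bipolar (1373 ± 217 CPM) and OFF cone bipolar cells (1334 ± 136 CPM). The ON and OFF cone bipolar means lay within their spread. Rod bipolar cells were lowest at 64.8 ± 33.1 CPM. *Grm2* and *Grm3* were highest in starburst cells, at 76.7 ± 16.8 CPM and 231 ± 92.5 CPM, and *Grm4* in GABAergic cells, at 74.8 ± 17.6 CPM. *Grm2* had 0 UMIs in cone, rod bipolar and OFF cone bipolar cells, where 3 UMIs would have been 0.117, 0.231 and 0.178 CPM.

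The Neto genes encode kainate receptor partners. *Neto1* (ENSMUSG00000050321, chr18:86412139-86524844) had OFF cone bipolar cells as its highest class, as *Grik1* did, with 824, 1028, 738 and 1027 CPM in S01 to S04 (control) and 774, 895, 1081, 1045 and 784 CPM in S05 to S09 (dKO). S07 was highest and S03 lowest, and the groups overlapped. ON cone bipolar cells followed at 151 ± 108 CPM, and horizontal cells were lowest at 3.36 ± 1.31 CPM. In GABAergic cells the *Neto1* mean was 60.1 CPM with, and 20.5 CPM without, S04, S05 and S07. *Neto2* was highest in GABAergic (146 ± 30.4 CPM) and ganglion cells (130.4 ± 36.2 CPM) and reached 79.8 ± 16.2 CPM in Müller glia.

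TARPs differed by class in which gene led. *Cacng4* (ENSMUSG00000020723, chr11:107623183-107685662), for TARP gamma-4, led in Müller glia at 403, 342, 381 and 242 CPM in S01 to S04 (control) and 332, 398, 359.5, 405 and 409 CPM in S05 to S09 (dKO). S04 was lowest and the other mice lay close together, with overlap between groups. It gave 88.6% ± 1.61 of the TARP UMIs of Müller glia.

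*Cacng3* (ENSMUSG00000066189, chr7:122269715-122368619), for gamma-3, was highest in horizontal cells, at 552, 531 and 431 CPM in S01 to S03 (control) and 541, 549, 528 and 683 CPM in S06 to S09 (dKO). S09 was highest and S03 lowest, and the groups overlapped. It gave 69.98% ± 3.11 of TARP UMIs there. *Cacng2* (ENSMUSG00000019146, chr15:77875948-78004441), for gamma-2 or stargazin, was highest in starburst cells, at 576, 505 and 604 CPM in S01 to S03 (control) and 489.8, 493 and 651 CPM in S06, S08 and S09 (dKO). S09 was highest and S06 lowest, both dKO mice. It took 54.6% ± 5.70 of TARP UMIs in OFF cone bipolar cells at 153 ± 24.9 CPM.

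*Cacng5*, for gamma-5, was alike in glycinergic (155 ± 26.03 CPM) and starburst cells (152 ± 23.8 CPM). *Cacng7*, for gamma-7, was the most even TARP gene, from 31.2 ± 8.19 CPM in cones to 129.9 ± 29.4 CPM in starburst cells, and it led the family in rod bipolar cells with 80.5% ± 10.7 of TARP UMIs. *Cacng8*, for gamma-8, did not exceed 19.6 ± 2.11 CPM. On the genome *Cacng4* lies 79.8 kb from *Cacng5* on chromosome 11, and *Cacng7* lies 22.5 kb from *Cacng8* on chromosome 7. The genes of each pair had different highest classes.

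**Figure D2:**
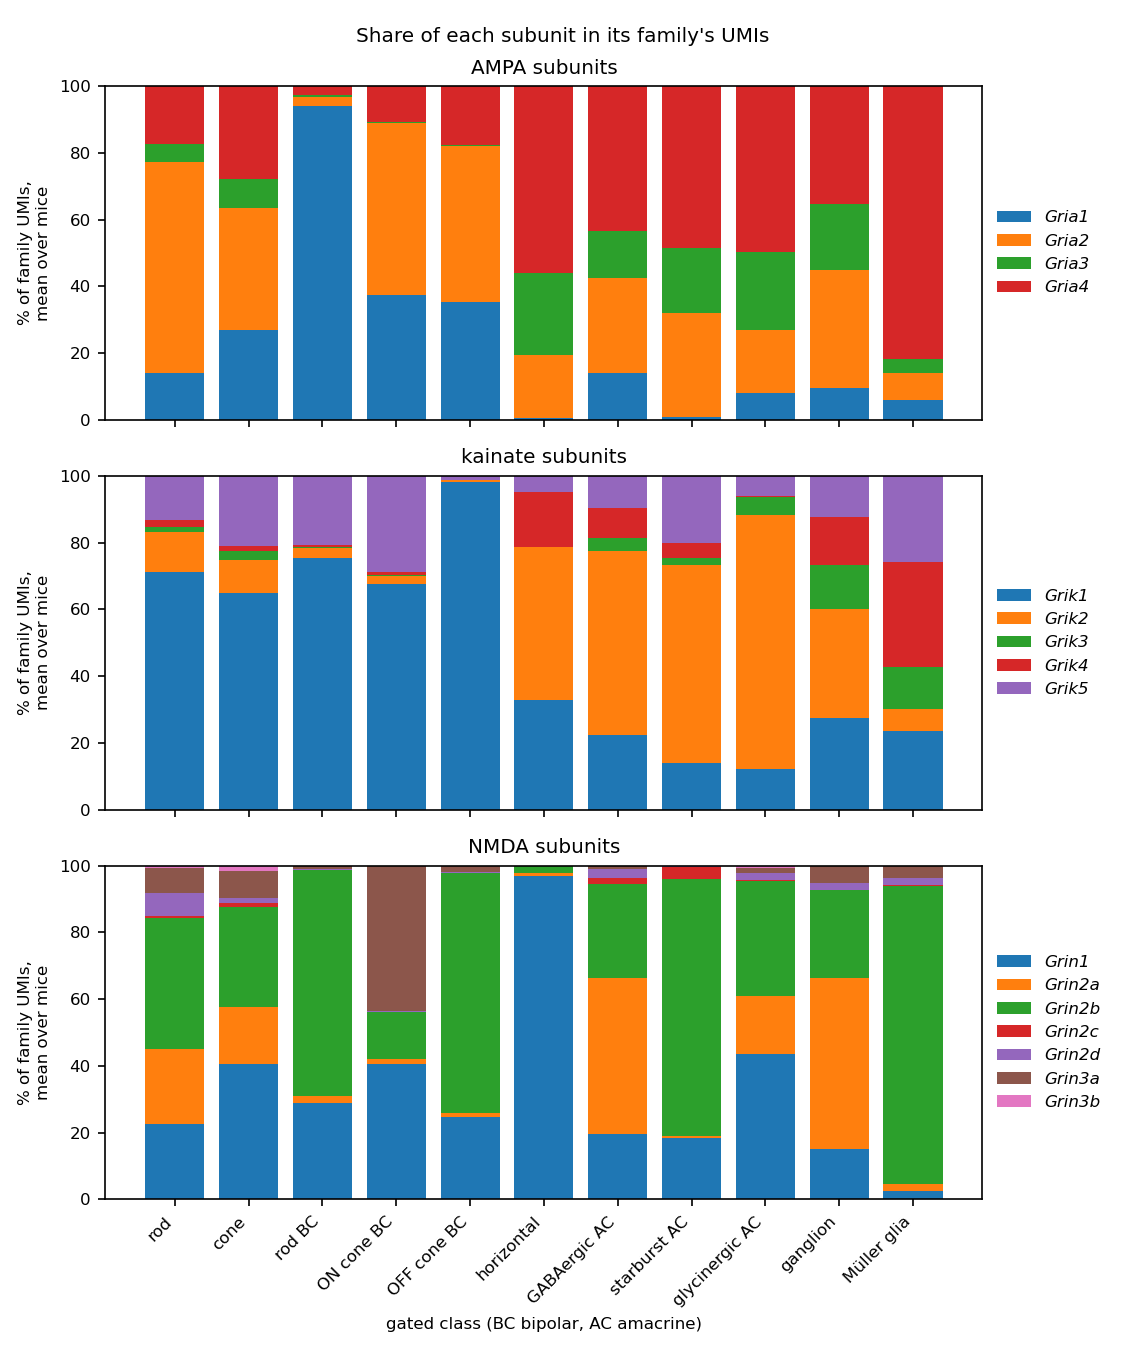
Share of a family's UMIs taken by each subunit gene (percent, mean over mice) in the 11 gated classes, for AMPA, kainate and NMDA genes. Gria1 fills the AMPA bar of rod bipolar cells (94.0%) and Grik1 the kainate bar of OFF cone bipolar cells (98.1%).

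Over the 5 families and 11 classes, the leading gene by UMIs was also the leading gene per exonic kb in 44 of 55 cases (80%). Exons of 22 members overlap an exon of another annotated gene, 8 of them on the same and 19 on the opposite strand. The plot of levels by mouse gives 6 members in every mouse, with *Grik1* the member that spread widely between mice in ON cone bipolar cells, rods and cones.

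**Figure D3:**
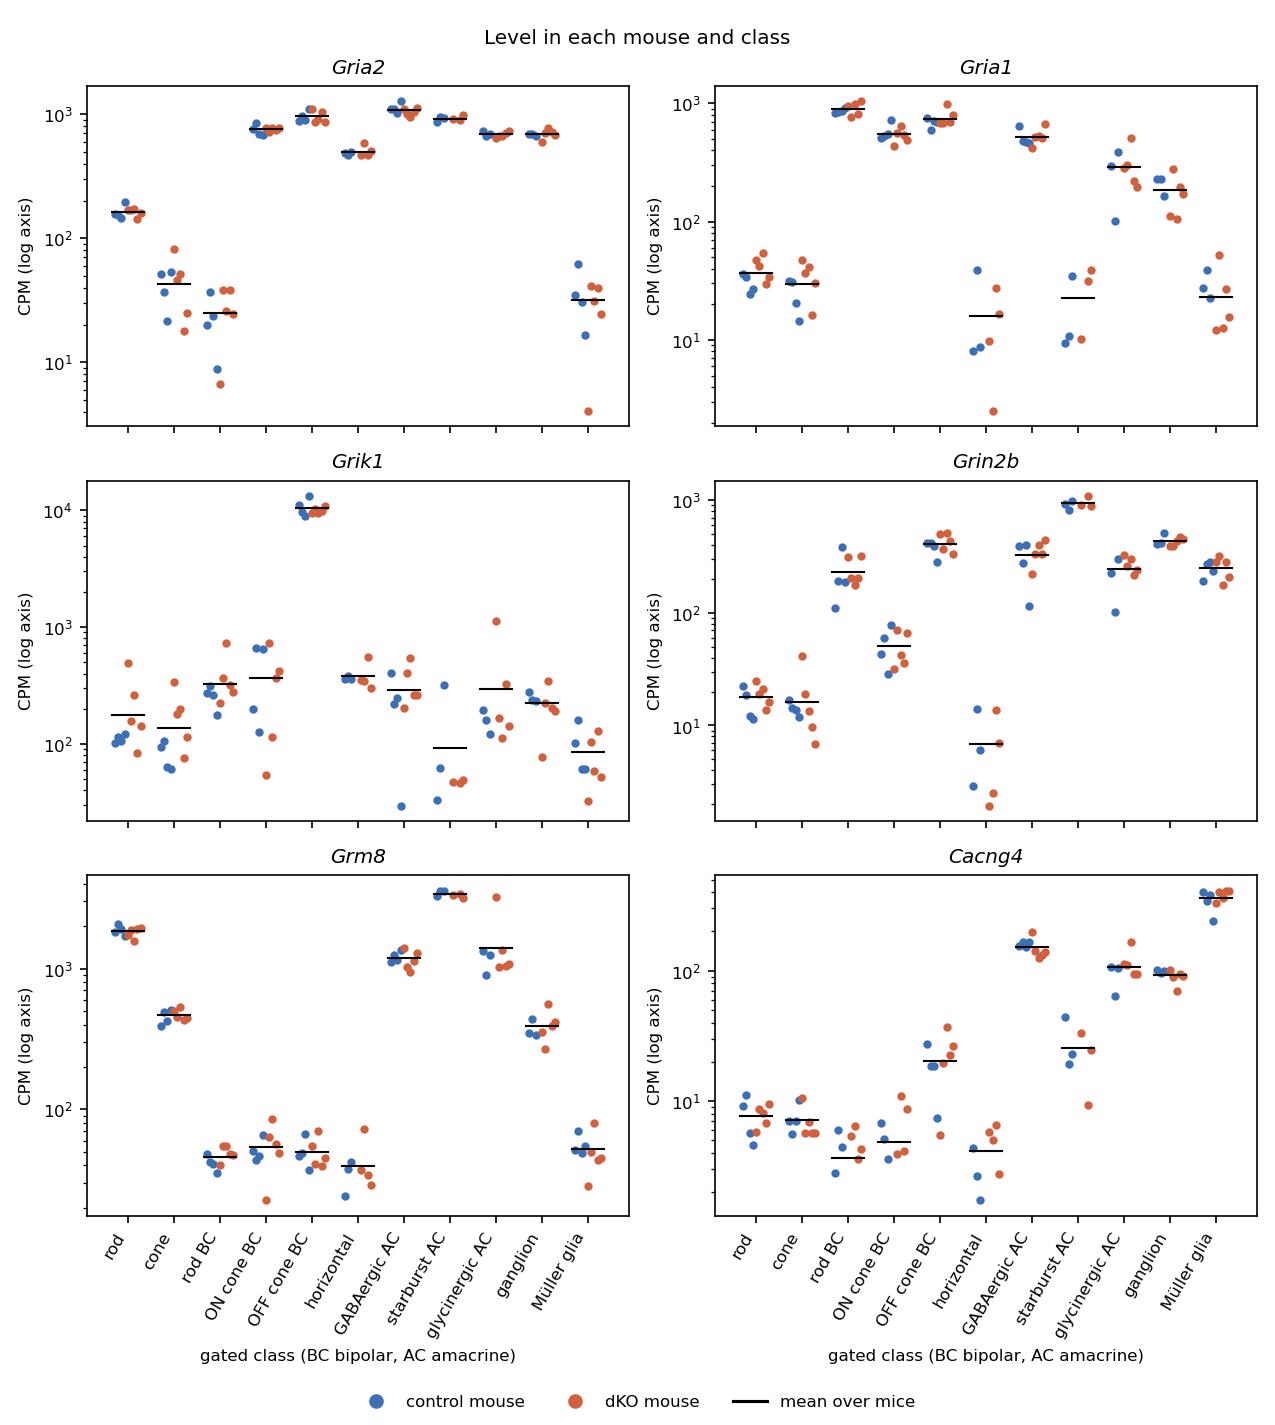
CPM (log axis) of Gria2, Gria1, Grik1, Grin2b, Grm8 and Cacng4 in every mouse with at least 10 cells of a gated class, control in blue and dKO in orange, with a bar at the mean. The groups lie over each other in nearly every class, and Gria2 is low in rod bipolar cells (24.8 CPM).

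Which classes differ in which subunits was asked in 8 pairs of classes, each fitted across all genes with edgeR and with the mouse as a term. A gene was called at an adjusted p below 0.05 and an absolute log2 fold change of at least 1. Fold changes are log2 of class over reference class, ± SE, with the number of mice that showed the direction. Members that passed the low-count filter numbered 24 (cone and rod), 19 (rod and ON cone bipolar), 21 (OFF and ON cone bipolar), 19 (horizontal and OFF cone bipolar), 30 in each of the 3 pairs with GABAergic cells and 25 (Müller glia and rod). In all, 96 calls were made, 88 of them with the called direction in every mouse. The median log2 fold change of the tested members was -0.30, -0.08, 0.28 and -0.76 in the first 4 pairs in that order, and -0.52, -0.69 and -0.39 in glycinergic, starburst and ganglion against GABAergic cells and 0.22 in Müller glia, while over all genes tested it lay between -0.05 and 0.01.

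In cones against rods, 0 members were called higher (10.3% of all genes tested) and 2 lower (6.75%), with the same counts without S04, S05 and S07. Members with an unadjusted p below 0.05 numbered 14 of 24 (58.3%), against 63.3% of all genes tested. DESeq2, a stricter gate and leaving out the 5% of cells with the most UMIs each gave 1 member called higher, and keeping low counts gave 4 called lower. *Grin1* lay at the edge with a log2 fold change of 0.9995. *Gria2* was lower in cones with a log2 fold change of -2.02 ± 0.14 (adjusted p 4.1e-09, 9 of 9 mice), and *Grm8* of -1.96 ± 0.06 (adjusted p 2.1e-13, 9 of 9 mice). Leaving out S02, S04, S06, S07 or S09 each gave 1 member called higher in place of 0. The median rod score was 30.65 in cones, and the part of rod RNA in the levels in cones was not tested.

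In rod bipolar against ON cone bipolar cells, 1 member was called higher (5.94% of all genes) and 7 lower (10.5%), unchanged in number without S04, S05 and S07, while a stricter gate gave 2 higher. These classes share input through a metabotropic receptor but differ in synaptic partners. *Grin3a* was lower in rod bipolar cells at -5.44 ± 0.22 (adjusted p 1.6e-16, 9 of 9 mice), and *Gria2* at -4.64 ± 0.12 (adjusted p 1.4e-20, 9 of 9 mice). The *Gria2* values given mouse by mouse do not overlap between these classes. *Grm7* was lower at -4.28 ± 0.11 (adjusted p 3.4e-20, 9 of 9 mice), *Neto1* at -4.04 ± 0.31, *Cacng5* at -3.63 ± 0.27 and *Gria4* at -2.43 ± 0.10. The direction of these held in 9 of 9 mice, except in 8 of 9 for *Neto1*, and the largest adjusted p of the 7 was 4.6e-05. *Grin2b* was higher by 2.22 ± 0.18 (adjusted p 6e-11, 9 of 9 mice).

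In OFF against ON cone bipolar cells, 8 members were called higher (5.03% of all genes) and 3 lower (4.41%), and the counts were 8 and 3 without the 3 mice. The members' share called was above that of all genes in both directions. *Grik1* was higher by 5.04 ± 0.28 (adjusted p 5.5e-12, 9 of 9 mice). *Cacng2* followed with 3.23 ± 0.17, *Grin2b* with 2.96 ± 0.15, *Neto1* with 2.68 ± 0.30, *Grik2* with 2.66 ± 0.14 and *Cacng4* with 1.99 ± 0.16, and the largest adjusted p among the 8 was 0.00048. These 6 showed the direction in 9 of 9 mice. The TARP genes went both ways, with *Cacng2*, *Cacng3* and *Cacng4* higher and *Cacng5* lower. Lower in OFF cells were *Cacng5* at -4.13 ± 0.23, *Grin3a* at -3.92 ± 0.19 and *Grm5* at -1.79 ± 0.09 (adjusted p 7.8e-13, 9 of 9 mice).

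In horizontal against OFF cone bipolar cells, both of which receive photoreceptor glutamate through AMPA or kainate receptors, 6 members were called higher (11.9% of all genes) and 9 lower (16.3%). Without the 3 mice the counts were 6 and 8. *Gria3* was higher by 6.30 ± 0.19 (adjusted p 3e-14, 7 of 7 mice), *Grik4* by 6.07 ± 0.13, *Cacng3* by 5.88 ± 0.14, *Grik2* by 2.89 ± 0.13, *Gria4* by 2.11 ± 0.08 and *Grin1* by 1.53 ± 0.07. The kainate genes named here went both ways, with *Grik2* and *Grik4* higher and *Grik1* lower. *Neto1* was lower at -7.98 ± 0.15 (adjusted p 1e-16, 7 of 7 mice), *Grin2b* at -5.55 ± 0.20, *Grid1* at -5.51 ± 0.27, *Gria1* at -5.19 ± 0.26, *Grik1* at -4.62 ± 0.11 and *Grm5* at -4.04 ± 0.23. Each of the 15 showed its direction in 7 of 7 mice, with adjusted p up to 2.1e-07.

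In glycinergic against GABAergic amacrine cells, 4 members were called higher (5.59% of all genes) and 9 lower (8.3%), and without the 3 mice 5 and 10. *Cacng5* was higher by 2.22 ± 0.08 (adjusted p 3.2e-10, 8 of 8 mice), *Grin3b* by 1.98 ± 0.25, *Grik3* by 1.33 ± 0.18 and *Grik2* by 1.20 ± 0.06. With a stricter gate the *Grik2* difference was 0.99, below the threshold of 1. Lower were *Grm3* at -4.63 ± 0.15 (adjusted p 9.5e-11, 8 of 8 mice), *Grik4* at -3.84 ± 0.18, *Grm7* at -2.49 ± 0.18, *Grin2a* at -2.29 ± 0.24, *Grm2* at -2.03 ± 0.31 and *Neto2* at -1.47 ± 0.11. The largest adjusted p among these 13 calls was 0.0011, and the called direction was seen in at least 7 of 8 mice.

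In starburst against the other GABAergic amacrine cells, 7 members were called higher (6.48% of all genes) and 14 lower (12.7%), with 6 mice that already left out S04, S05 and S07. Starburst cells compute the direction of motion. Higher were *Grm2* by 2.63 ± 0.23 (adjusted p 1e-07, 6 of 6 mice), *Cacng5* by 2.14 ± 0.13, *Grm3* by 2.12 ± 0.18, *Cacng2* by 1.75 ± 0.08, *Grm8* by 1.63 ± 0.07 and *Grin2b* by 1.46 ± 0.09. *Grin2a* was lower at -6.41 ± 0.19 (adjusted p 1.6e-13, 6 of 6 mice), *Gria1* at -4.54 ± 0.20, *Neto2* at -4.05 ± 0.22 and *Grm5* at -3.76 ± 0.27. The largest adjusted p of the 21 calls was 0.011, and the called direction was seen in at least 5 of 6 mice. The GluN2 genes thus pointed in opposite directions, with *Grin2b* higher and *Grin2a* lower. *Grm4* and *Grin3a* had 3 and 1 UMIs in starburst cells, so the GABAergic over starburst ratio was 73.6 (95% counting interval 25.2 to 357) for *Grm4* and 27.2 (4.85 to 1077) for *Grin3a*.

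In ganglion against GABAergic amacrine cells, 4 members were called higher (8.82% of all genes) and 10 lower (7.32%), the same numbers as without the 3 mice. Both classes receive bipolar glutamate in the inner plexiform layer. *Grin3a* was higher by 3.18 ± 0.20 (adjusted p 8.5e-09, 8 of 8 mice), *Grid1* by 1.93 ± 0.12, *Cacng5* by 1.68 ± 0.10 and *Grik3* by 1.62 ± 0.14. Lower were *Cacng3* at -2.41 ± 0.10, *Grm3* at -2.37 ± 0.20, *Neto1* at -1.94 ± 0.29 and *Grm8* at -1.55 ± 0.11. *Grm2* and *Grin2c* were called lower as well. In ganglion cells they held 0.0352% ± 0.0307 of metabotropic and 0.0925% ± 0.0931 of NMDA UMIs. Their fold changes rest on few UMIs there and are not given. The largest adjusted p of the 14 calls was 5.9e-05, with at least 7 of 8 mice in the called direction.

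In Müller glia against rods, 10 members were called higher (24.2% of all genes) and 2 lower (18.2%), and without the 3 mice 11 and 2. With the 5% of cells with the most UMIs left out, 5 members were called lower in place of 2. *Cacng4* was higher by 5.63 ± 0.10 (adjusted p 4.9e-18, 9 of 9 mice), *Grik4* by 4.78 ± 0.17, *Neto2* by 4.15 ± 0.15, *Grin2b* by 3.89 ± 0.15, *Grik3* by 3.89 ± 0.32 and *Gria4* by 2.89 ± 0.13. The largest adjusted p of the 10 was 1.9e-05, with at least 8 of 9 mice in the called direction. Lower were *Grm8* at -5.07 ± 0.11 (adjusted p 2.6e-17, 9 of 9 mice) and *Gria2* at -2.04 ± 0.15 (adjusted p 9.1e-10, 9 of 9 mice). Whether rod RNA makes up part of the *Grm8* level in Müller glia (52.6 ± 15.1 CPM) was not tested.

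**Figure D4:**
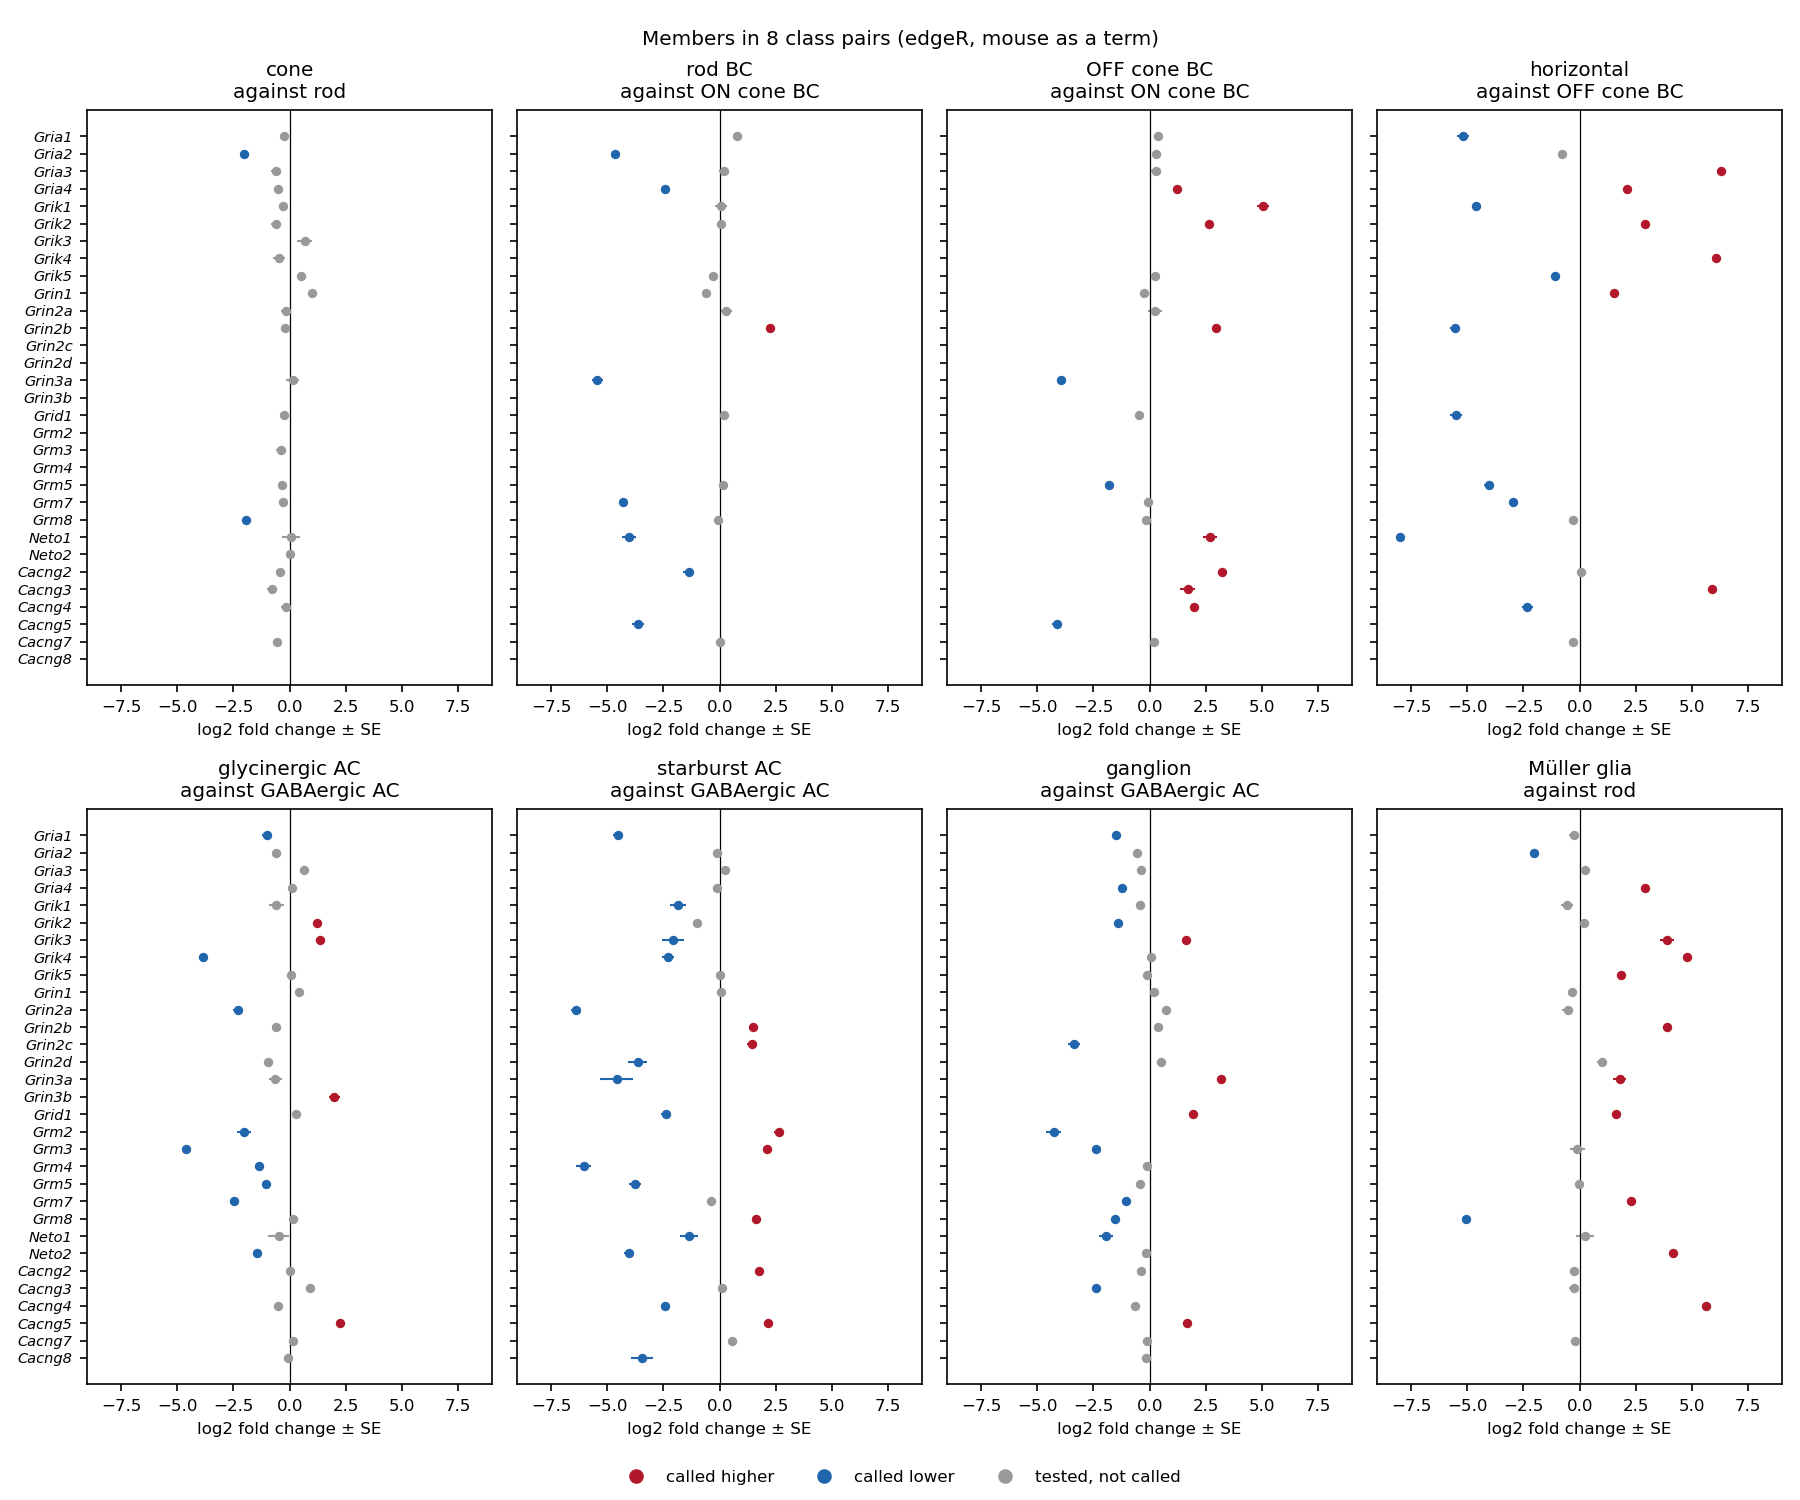
Log2 fold change ± SE of each tested member in the 8 class pairs, red where called higher, blue where called lower and grey where tested and not called. OFF against ON cone bipolar cells run from -4.13 (Cacng5) to 5.04 (Grik1), and in cones against rods 2 members are blue and 0 red.

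Other glutamate genes were read from 3 lists, with 13 receptor and auxiliary genes outside the 31, 21 genes of the postsynaptic scaffold and 14 of glutamate release, uptake and turnover. In OFF against ON cone bipolar cells 2 of 8 tested receptor genes were higher and 2 lower, and *Grm6*, the ON bipolar receptor gene, was lower at -5.97 ± 0.19, where 4 of 20 scaffold genes were higher and 2 lower, and 0 of 11 release, uptake and turnover genes were called, against 5.03% of all genes higher and 4.41% lower. In rod bipolar against ON cone bipolar cells the counts were 1 higher and 4 lower of 7, 1 and 6 of 18, and 1 and 0 of 11, against 5.94% and 10.5% of all genes. *Shisa9*, an AMPA receptor partner outside the TARPs, was lower at -3.95 ± 0.13 in that pair. In horizontal against OFF cone bipolar cells they were 0 and 4 of 4, 4 and 5 of 20, and 1 and 7 of 11, against 11.9% and 16.3% of all genes, with the scaffold gene *Shank3* higher by 5.08 ± 0.13.

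In cones against rods the 3 lists gave 1 higher and 0 lower of 7, 6 and 0 of 19, and 3 and 0 of 11, against 10.3% and 6.75% of all genes, and *Shisa6*, another AMPA receptor partner, was higher by 4.14 ± 0.10. Against GABAergic cells, glycinergic cells gave 2 and 4 of 11, 1 and 6 of 20, and 2 and 0 of 13 (5.59% and 8.3% of all genes), and ganglion cells 1 and 4 of 11, 2 and 5 of 21, and 1 and 0 of 13 (8.82% and 7.32%). The vesicular transporter genes *Slc17a8* in glycinergic cells (5.19 ± 0.32) and *Slc17a6* in ganglion cells (9.52 ± 0.15) were the genes of the release, uptake and turnover list with the largest difference in these pairs. Starburst cells gave 0 and 8 of 11, 2 and 7 of 21, and 0 and 5 of 12, against 6.48% and 12.7% of all genes. *Cnih3* had 0 UMIs there, where 3 UMIs would be 0.887 CPM. Müller glia against rods gave 3 and 0 of 8, 12 and 1 of 20, and 5 and 4 of 11, against 24.2% and 18.2% of all genes, with the glutamine synthetase gene *Glul* (6.47 ± 0.09) and the uptake transporter gene *Slc1a3* (6.34 ± 0.09) higher.

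Whether receptor RNA in neurons and Müller glia differed between the groups was asked by fitting dKO against control mice within each class. Only dKO mice received tamoxifen, so effects of the drug and of the deletion cannot be told apart. Members that passed the filter numbered 27 in rods, 22 in cones, 17 in rod bipolar, 21 in ON cone bipolar, 20 in OFF cone bipolar, 16 in horizontal, 30 in GABAergic, 20 in starburst, 28 in glycinergic, 28 in ganglion and 25 in Müller glia cells. Every one of the 31 was tested in at least 1 class, 24 in at least 6 and 12 in all 11, which made 254 tests. At an adjusted p below 0.05 edgeR called 0 members in each class, and 0 in each class without S04, S05 and S07. Of all genes edgeR called 0.0475% in starburst and 0.00857% in ganglion cells, and 0% in rods, cones, rod bipolar, ON cone bipolar, OFF cone bipolar, horizontal, GABAergic, glycinergic and Müller glia cells.

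DESeq2 called 0 members as well, and 8 of the 121057 genes and classes tested, against 4 by edgeR. At an unadjusted p below 0.05 by edgeR there were 15 members and classes (5.91%), against 3083 of 121057 genes and classes (2.55%). The median log2 fold change of the tested members lay between -0.08 in Müller glia and 0.20 in glycinergic cells, and that of all genes between -0.01 and 0.01. The lowest adjusted p of a member was 0.998. The median SE of a member's log2 fold change was 0.217, and 203 of the 254 intervals (at 95% confidence) lay within 1 log2 unit of 0.

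The 5 members and classes with the lowest unadjusted p by edgeR are given as values without a call. *Grik2* in OFF cone bipolar cells stood at 120.0, 94.04, 84.8 and 52.1 CPM in S01 to S04 (control) and 35.8, 64.8, 43.8, 63.2 and 66.7 CPM in S05 to S09 (dKO). The dKO values were mostly below the control values, but S04 lay among them. The log2 fold change of *Grik2* there was -0.70 ± 0.17 (95% interval -1.03 to -0.37, unadjusted p 0.00042, adjusted p 0.99985), with 87.7 ± 28.1 CPM in control and 54.9 ± 14.1 CPM in dKO mice, and -0.63 without S04, S05 and S07.

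*Grm5* in horizontal cells stood at 21.9, 79.5 and 34.6 CPM in S01 to S03 (control) and 12.6, 12.5, 17.7 and 25.03 CPM in S06 to S09 (dKO). S02 was far above the other mice, and S09 lay above S01, so the groups overlapped. Its log2 fold change was -1.42 ± 0.39 (95% interval -2.20 to -0.65, unadjusted p 0.0026, adjusted p 0.99991), and -1.36 without the 3 mice. *Grm7* in rod bipolar cells stood at 49.7, 55.2, 48.2 and 26.5 CPM in S01 to S04 (control) and 40.3, 56.3, 133, 102 and 72.4 CPM in S05 to S09 (dKO). S07 was highest and S04 lowest, and S05 lay among the control mice. *Grm7* was higher in cone bipolar cells, and the part of such cells in these values was not tested. The *Grm7* log2 fold change was 0.70 ± 0.23 (95% interval 0.24 to 1.15, unadjusted p 0.0061, adjusted p 0.99999), and 0.58 without the 3 mice.

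*Grik3* in ganglion cells stood at 155, 127 and 158 CPM in S01 to S03 (control) and 46.1, 129.5, 61.4, 90.8 and 91.98 CPM in S05 to S09 (dKO). S06 lay among the control mice, and S05 and S07 were lowest. Of the cone bipolar markers, *Zfhx4* stood at 235 CPM pooled over ganglion cells, *Syt2* at 131 CPM (against 59.8 CPM in OFF cone bipolar cells) and *Scgn* at 1.95 CPM. The part of cone bipolar cells in the *Grik3* values was not tested. Its log2 fold change was -0.76 ± 0.23 (95% interval -1.21 to -0.30, unadjusted p 0.0064, adjusted p 0.99997), and -0.47 without the 3 mice.

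*Grik1* in cones stood at 93.3, 106, 63.5 and 60.3 CPM in S01 to S04 (control) and 336, 181, 199.6, 75.6 and 114 CPM in S05 to S09 (dKO). S05 was highest, and S08 lay among the control mice. Its log2 fold change was 1.08 ± 0.32 (95% interval 0.45 to 1.71, unadjusted p 0.0045, adjusted p 1), and 0.51 with unadjusted p 0.065 without the 3 mice. *Grik1* in rods was likewise high in S05, with 102, 113, 106 and 122 CPM in S01 to S04 (control) and 488, 156, 260.0, 83.2 and 142 CPM in S05 to S09 (dKO). Markers of cone bipolar cells, where *Grik1* is highest, were read in the same cells. In cones *Scgn* stood at 12.9, 10.1, 5.29 and 4.24 CPM in S01 to S04 and 21.0, 5.71, 12.7, 4.66 and 5.11 CPM in S05 to S09. In rods it stood at 6.20, 8.73, 7.28 and 7.88 CPM in S01 to S04 and 12.7, 7.92, 12.9, 5.04 and 7.78 CPM in S05 to S09. In rods S05 and S07 had the highest *Scgn* and *Grik1* values. Summed over 10 cone bipolar markers, rods had 81.7, 101, 76.2 and 86.9 CPM in S01 to S04. In S05 to S09 this sum was 134, 80.9, 122, 58.4 and 74.0 CPM. Not every marker went this way. *Syt2* in rods was lowest in S05 (2.48 CPM) and highest in S02 (8.33 CPM). *Irx6* stood at 0.531 CPM in S05 and 0.794 CPM in S02. In cones S05 was highest in both, while S01 had the next highest *Scgn* with 93.3 CPM of *Grik1*. *Zfhx4* in cones stood at 187, 135, 117 and 132 CPM in S01 to S04 and 171, 128, 146, 116 and 127 CPM in S05 to S09. Summed over the 10 markers, cones had 252, 199, 156 and 159 CPM in S01 to S04. In S05 to S09 this sum was 296, 194, 222, 160 and 164 CPM. The part of these markers in the *Grik1* values was not tested.

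With every gene of at least 1 UMI kept, edgeR called 10 members and classes of 336, from 6 genes, against 0.215% of all genes and classes. In log2 fold change, *Grik1* was 1.07 in cones and -1.51 in starburst cells, *Grik2* -0.71 in OFF cone bipolar cells, and *Grid1* -1.08 and *Grm5* -1.45 in horizontal cells. *Neto1* was 1.71 in GABAergic, 1.41 in ganglion and -1.04 in Müller glia cells, and *Grik3* -0.76 in ganglion and 1.10 in Müller glia cells. The direction of *Grik1*, *Neto1* and *Grik3* thus differed between classes, which was not tested as a difference. *Neto1* in GABAergic cells stood at 20.7, 18.6, 20.7 and 18.4 CPM in S01 to S04 (control) and 265, 32.4, 134, 17.7 and 12.9 CPM in S05 to S09 (dKO). S05 and S07 were far above the other mice, and without S04, S05 and S07 the mean over mice was 20.5 CPM. Of the 3 other glutamate lists, 0, 0 and 0 genes were called in dKO against control by edgeR.

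**Figure D5:**
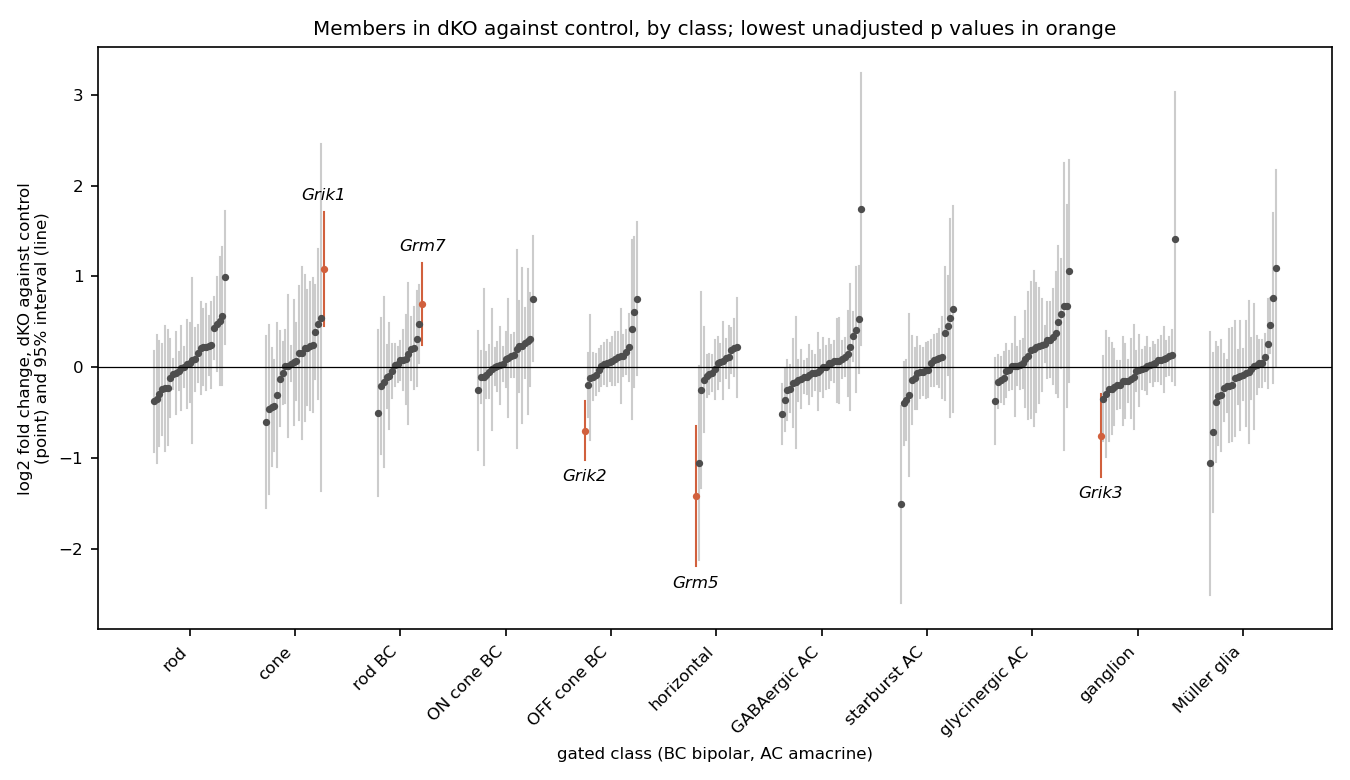
Log2 fold change of each tested member in dKO against control mice within each gated class (points) with its 95% interval (lines), orange for the 5 members and classes with the lowest unadjusted p. Most points lie near 0, and 203 of 254 intervals stay within 1 log2 unit of it.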

How the data were processed

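Fixed single cells of 9 mice were barcoded with Parse Biosciences Evercode kits, and the reads were processed with the split-pipe software. The raw counts (UMIs per gene and cell) were deposited by the authors after mapping to GRCm39, and no normalization had been applied. Cells were gated by marker UMIs per 10000 UMIs of the cell, with class rules that exclude each other, and thresholds were chosen after seeing the data, as were the members shown mouse by mouse. Sept4, a horizontal marker, was not among the gene names. Raw UMIs were summed per mouse and class. The sums were fitted across all genes with edgeR 4.0.16 (R 4.3.3, filterByExpr, TMM, quasi-likelihood test, Benjamini-Hochberg), and DESeq2 1.42.0 was an alternative. Class pairs had the mouse as a term. The fits were tested on simulated data. Total UMIs per mouse ran from 15079143 to 66528160, and intervals and floors (3 UMIs) cover counting error only. Exonic lengths came from GENCODE M39. In a class pair up to 6 called members per direction were named, by absolute log2 fold change, and up to 3 genes per direction from each other list were eligible. In dKO against control the 5 lowest unadjusted p were named. Members and lists were chosen with earlier results of these data known.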

Additional observations from a re-analysis of the deposited data

Results flagged for a closer look

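The level of *Cacng3* in horizontal cells of the dKO mouse S09 was 682.853 CPM, far from the other 3 dKO mice with horizontal cells, which lay between 528 and 549 CPM. The gap to the nearest mouse was 0.863 of the range of the group. In all, 38 groups of 4 or 5 mice were examined this way, and chance alone gives about 1 in 20.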

How the results depend on the processing

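The alternatives were DESeq2 with its size factors, no mouse term, low counts kept, library size alone for TMM, a stricter gate, the 5% of cells with the most UMIs left out, a minimum of 20 cells, S06 and S07 summed as 1 mouse, without S04, S05 and S07, and each mouse left out. Of the log2 fold changes of named members, 1196 kept their direction and side of the threshold, 4 dKO differences passed it without a filter, 1 class difference (*Grik2*, glycinergic against GABAergic amacrine cells, stricter gate) missed it, and 0 changed sign.

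Without a filter, 10 members and classes were called in dKO against control in place of 0, and 4 members in cones against rods, all 4 lower, in place of 2. Cones against rods gave 1 member higher in place of 0 with DESeq2, with a stricter gate and with the top 5% of cells left out, and 0 to 1 with each mouse left out. With a stricter gate 2 members were higher in rod bipolar against ON cone bipolar cells in place of 1. With the top 5% of cells left out 5 members were lower in Müller glia against rods in place of 2. The cause was not tested.

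With each mouse left out, members called were 0 to 0 in dKO against control. In class pairs, higher, lower and in all, they were 0 to 1, 2 to 2 and 2 to 3 (cone and rod), 1 to 1, 7 to 7 and 8 to 8 (rod bipolar and ON cone bipolar), 7 to 8, 3 to 3 and 10 to 11 (OFF and ON cone bipolar), 6 to 6, 8 to 9 and 14 to 15 (horizontal and OFF cone bipolar), 4 to 4, 7 to 11 and 11 to 15 (glycinergic and GABAergic), 7 to 7, 14 to 15 and 21 to 22 (starburst and GABAergic), 4 to 4, 10 to 10 and 14 to 14 (ganglion and GABAergic), and 10 to 11, 2 to 2 and 12 to 13 (Müller glia and rod).

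Of 308 shares, 128 moved by more than 1 SD per exonic kb and 20 with a stricter gate. Control and dKO mice could not be paired, as the labels name no such pairs. Of the members with few UMIs, *Grin2c*, *Grin3b* and *Grm2* passed the filter on low counts in 2, 1 and 2 of the 11 classes in dKO against control. Starburst cells had 106 cells in all.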
